A study of Mus musculus with 12 samples.

Results

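The genes described here encode complement and coagulation proteins, a set of 38 listed genes whose products are made mostly by the liver and secreted into plasma. A member was taken from every probe set annotated with exactly 1 symbol on the list, and of several probe sets for a gene the one brightest on average across the 12 arrays was kept. This gave 35 measured members of 12393 genes with a single-symbol probe set: 15 on the complement side, 19 on the coagulation side, and vitronectin (Vtn), which acts on both and was counted with neither. C3 and Cpb2 had 0 single-symbol probe sets and have no value here. C4b was covered only by a probe set shared with C4a, which differed between genotypes by -0.10 ± 0.13 (log2 difference ± SE) on the control diet and by -0.12 ± 0.13 on the quercetin diet.

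Complement is a set of plasma proteins that mark and lyse microbes. Lectins such as the mannose-binding lectins start one of its routes with their MASP proteases, convertases built from C2, C4 and factor B cleave C3 and C5, and C5 to C9 assemble the membrane attack complex. Coagulation turns prothrombin into thrombin, which makes fibrin from fibrinogen; the contact system of factor XII, plasma prekallikrein and kininogen feeds into it, protein C and antithrombin restrain it, and plasmin dissolves the clot. Hepatocytes are the main source of most of these proteins, and several of them are acute phase proteins whose mRNA rises in inflammation.

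Total RNA of whole liver from male mice aged 6 to 8 weeks was hybridized to Affymetrix 430A arrays, each array carrying RNA pooled from 3 mice, with 3 arrays in each of 4 groups. The groups were wild-type mice and mice null for cytochrome P450 reductase (POR, the electron donor of microsomal cytochromes P450), each on RM3 soya-free powdered diet alone or with quercetin, a dietary flavonol, at 6.2 g per kg (7 mg per mouse). All mice first ate the RM3 diet for 14 days, and livers were taken 24 h after the experimental diet began. All samples are labelled C57BL/6. The labels do not say how or in which cells Por was disrupted, so loss of POR and any difference in breeding background cannot be told apart, and Por itself was not analysed here. The p-values rest on the spread between pools rather than between animals, and the number of arrays limits the precision. In whole tissue, fewer cells of a type and less RNA per cell cannot be told apart.

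Array medians lay between 5.93 and 5.99 on the deposited log2 scale, and arrays of a group correlated at 0.988 to 0.993 over all probe sets. Of 15 listed hepatocyte markers 13 were measured, at a mean level per array of 11.9 to 12.1. Exocrine pancreas markers (10 of 14 measured) had a mean level of 6.02 to 8.41 in 11 arrays and 9.56 in POR-null quercetin array 3.

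Genes are followed below by their log2 level on each array, then by the log2 difference ± its moderated SE from a limma fit over all 12 arrays, with p-values adjusted by Benjamini-Hochberg over 22626 probe sets. A gene is said to have risen or fallen where the adjusted p was under 0.05. Levels of different probe sets are not compared with each other.

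The sequence before the transcription start is shown for 3 genes that fell in POR-null liver (Hc, C9 and Klkb1) and for F11, the chromosomal neighbour of Klkb1, which did not. Each holds the 250 bases before the start in the GRCm38.p6 RefSeq promoter table: chr2:35061413-35061662 on the minus strand for Hc, chr15:6445096-6445345 on the plus strand for C9, chr8:45294836-45295085 on the minus strand for Klkb1, and chr8:45262032-45262281 on the minus strand for F11. The annotated gene span runs further upstream, to chr2:35068506 for Hc and chr8:45262055 for F11. The starts used for Hc and F11 are thus not the outermost annotated ones, and the whole Hc window lies inside the gene span. Capitals mark matches, on either strand, to GTTAAT (part of the site of HNF1, a liver homeobox factor), TTGCNNAA (C/EBP, leucine zipper factors of liver) or TTCNNNGAA (STAT, activated by interleukin 6).
Hc: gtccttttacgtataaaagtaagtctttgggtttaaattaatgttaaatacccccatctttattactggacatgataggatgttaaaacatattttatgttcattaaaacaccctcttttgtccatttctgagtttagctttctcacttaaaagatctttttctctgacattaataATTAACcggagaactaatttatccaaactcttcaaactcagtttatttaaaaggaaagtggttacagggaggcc
C9: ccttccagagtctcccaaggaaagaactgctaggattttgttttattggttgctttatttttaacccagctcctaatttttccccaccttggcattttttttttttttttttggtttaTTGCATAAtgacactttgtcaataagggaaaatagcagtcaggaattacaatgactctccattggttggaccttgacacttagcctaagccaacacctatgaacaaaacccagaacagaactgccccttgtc
Klkb1: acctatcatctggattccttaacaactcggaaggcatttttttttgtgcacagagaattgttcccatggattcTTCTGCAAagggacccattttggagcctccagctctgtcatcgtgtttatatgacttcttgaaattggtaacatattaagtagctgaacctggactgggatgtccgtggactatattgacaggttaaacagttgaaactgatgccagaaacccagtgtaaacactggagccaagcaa
F11: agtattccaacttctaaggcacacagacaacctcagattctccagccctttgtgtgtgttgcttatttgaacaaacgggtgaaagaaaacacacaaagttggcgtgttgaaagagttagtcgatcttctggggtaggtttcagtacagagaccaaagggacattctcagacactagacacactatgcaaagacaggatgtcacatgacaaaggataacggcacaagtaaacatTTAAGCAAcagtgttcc
The Hc window holds the HNF1 letters at position -74 relative to the start. The C9, Klkb1 and F11 windows each hold the C/EBP motif, at positions -132, -177 and -17. Windows of 300 bases, which run 50 bases past the start, were found for 29 of the 38 listed genes, 27 of them measured. GTTAAT occurred in 9 of these 29 (C4bp, C8a, C8b, F13b, F2, Fga, Fgb, Hc and Vtn) and in 7.1% of all 32851 windows. TTGCNNAA occurred in 9 (C3, C9, Cpb2, F11, F9, Fga, Fgb, Klkb1 and Serpinc1), against 10.8% of all windows. TTCNNNGAA occurred in 7 (C8a, F9, Fga, Fgb, Masp2, Pros1 and Vtn), against 8.3% of all. The looser C/EBP form TTNNGNAA, which holds TTGCNNAA read on the other strand, was in 17, against 40.7% of all. The full HNF1 site (GTTAAT, any 1 base, then ATTAAC) was in 0 of 29, and in 0.00913% of all windows. The HNF4 motif CAAAGTCCA was in 0 of 29, and in 0.475% of all windows. These are matches of letters and were not tested as binding sites.

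POR-null livers had lower mRNA levels of 6 of the 35 members when the genotype difference was averaged over both diets, and 0 rose. The 6 were Klkb1 (plasma prekallikrein), Hc (complement C5), C9 (the pore-forming component of the membrane attack complex), Cfb (factor B, the protease of the alternative convertase), Proc (protein C, an anticoagulant protease) and F2 (prothrombin). Their linear levels differed by -26.9%, -30.1%, -30.4%, -22.1%, -23.0% and -15.5% in that order. Over all 12393 genes 2.86% fell in this comparison and 5.08% rose. Among the 3544 genes at or above the mean level of the dimmest member, called the genes as bright below, 4.54% fell and 11.4% rose. That set is not matched to the members in level. Its mean level per array was 8.54 to 8.66, against 10.2 to 10.5 for the members. The averaged comparison was added after the values on each diet had been seen.

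With the control diet alone 1 member, Klkb1, fell and 0 rose, where 0.323% of all genes fell and 0.92% rose. With the quercetin diet 5 of 35 members (14.3%) fell, namely C9, Hc, Cfb, Klkb1 and Proc, and 0 rose. There 0.629% of all genes fell (1.16% of the genes at or above the dimmest member) and 1.86% rose. These 2 comparisons share no arrays. The log2 differences had the same sign on both diets for 27 of 35 members (77.1%), against 63.8% of all genes and 71.2% of the genes as bright. Across the 35 members the differences on the 2 diets had a Pearson correlation of 0.59, the same as across all genes (0.59) and below that across the bright genes (0.71). These correlations run across genes, which are not independent and share the arrays of each comparison.

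**Figure D1:**
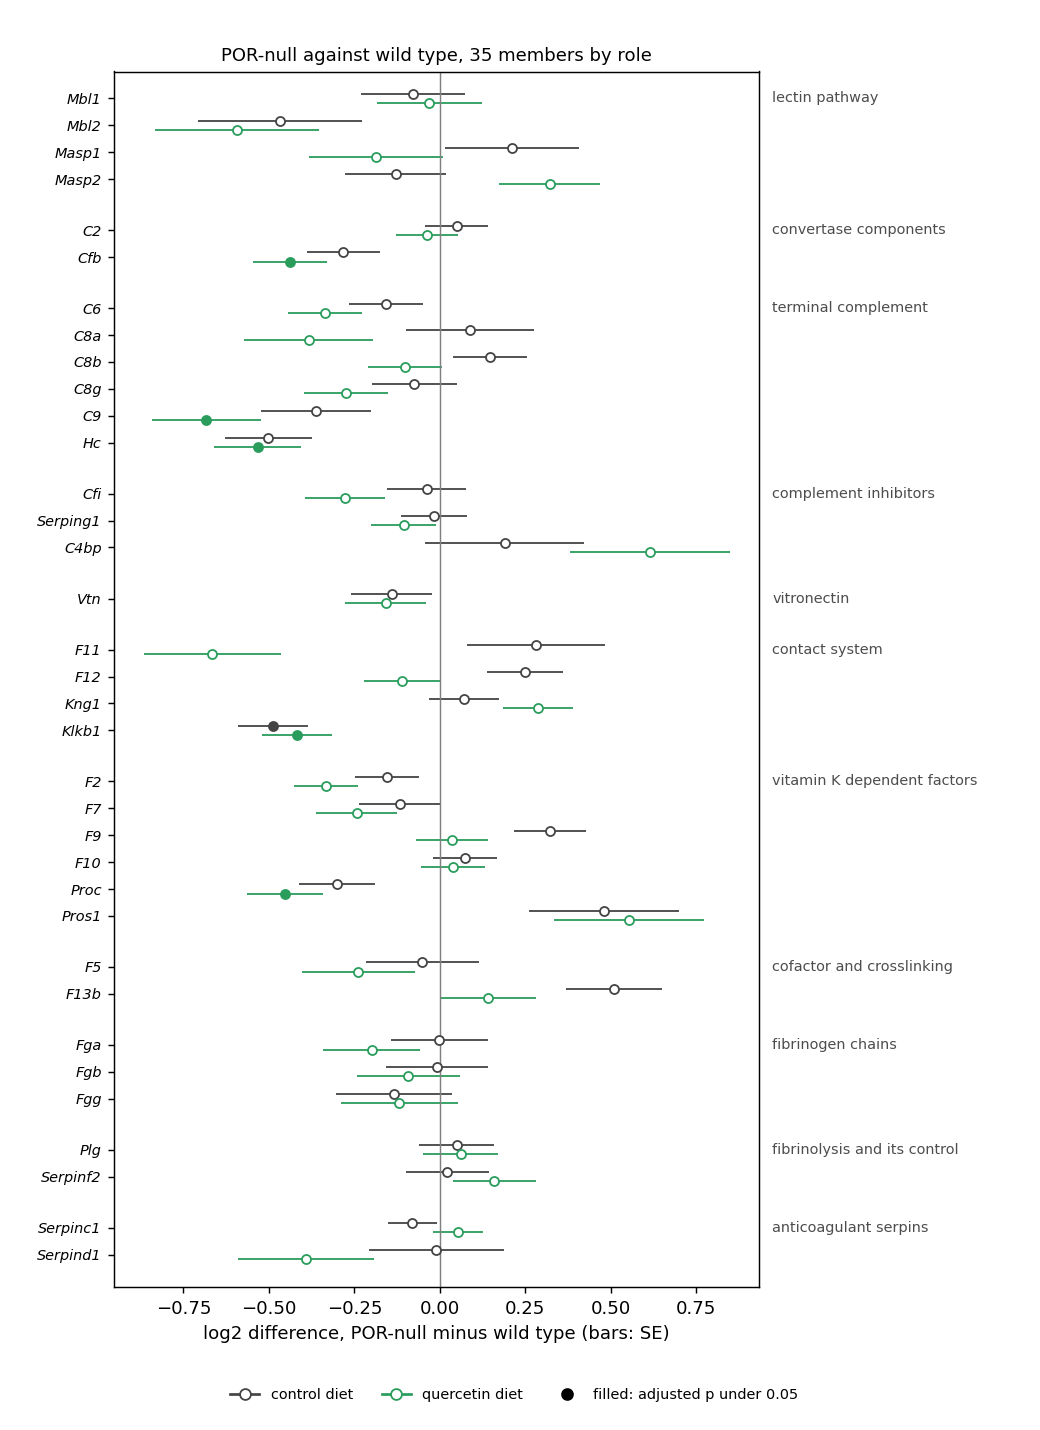
Log2 difference between POR-null and wild type (x axis, with SE) for the 35 members grouped by role (y axis), on the control diet (grey) and the quercetin diet (green). Filled points have an adjusted p under 0.05: Klkb1 on both diets, and C9, Hc, Cfb and Proc on the quercetin diet, all to the left of 0.

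Klkb1 encodes the zymogen of the kallikrein that releases bradykinin from kininogen and activates factor XII. Its level was 9.18, 9.34 and 9.28 on the wild-type control arrays, 9.12, 9.11 and 9.38 on the wild-type quercetin arrays, 8.73, 8.68 and 8.94 on the POR-null control arrays, and 8.68, 8.85 and 8.84 on the POR-null quercetin arrays. All 6 POR-null arrays lay below all 6 wild-type arrays, a pattern met by 1.27% of all genes and, among the members, by Klkb1, Hc and Proc. The difference was -0.49 ± 0.10 on the control diet (adjusted p = 0.0379) and -0.42 ± 0.10 on the quercetin diet (adjusted p = 0.0476), and -0.45 ± 0.07 over both (adjusted p = 0.00196).

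Klkb1 was the 1 contact system gene of 4 that lay below 0 on the control diet. F11 (factor XI), its chromosomal neighbour, F12 (factor XII) and Kng1 (kininogen) differed by 0.28 ± 0.20, 0.25 ± 0.11 and 0.07 ± 0.10 there, and none passed the test (adjusted p = 0.535, 0.292 and 0.786). The quercetin diet gave -0.67 ± 0.20 for F11, -0.11 ± 0.11 for F12 and 0.29 ± 0.10 for Kng1 (adjusted p = 0.1001, 0.660 and 0.163). For Kng1 a second probe set gave -0.31 ± 0.13 on that diet, opposite in sign to the one used, and did not pass either (adjusted p = 0.248). The difference between Klkb1 and these genes was not tested.

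Of the complement roles, the terminal genes had the lowest median on the quercetin diet. There all 6 of them (Hc, C6, C8a, C8b, C8g and C9) lay below 0 in POR-null against wild type, with a median of -0.36, and 2 fell. On the control diet 4 of 6 lay below 0, with a median of -0.12, and 0 passed by limma (2 were lower at an unadjusted p under 0.05). There 53.9% of all genes lay below 0, and 8.04% of all genes (10.1% of the genes as bright) were lower at an unadjusted p under 0.05. For comparison, 56.3% of all genes and 43.7% of the genes as bright lay below 0 on the quercetin diet.

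Hc encodes C5, which is cleaved to the anaphylatoxin C5a and to C5b, the first component of the attack complex. Its level was 10.41, 10.79 and 10.67 on the wild-type control arrays, 10.48, 10.59 and 10.58 on the wild-type quercetin arrays, 9.80, 10.27 and 10.30 on the POR-null control arrays, and 10.12, 9.97 and 9.96 on the POR-null quercetin arrays. The 6 POR-null arrays all lay below the 6 wild-type arrays, with POR-null control array 1 the lowest. Hc fell by 0.53 ± 0.13 on the log2 scale on the quercetin diet (adjusted p = 0.0426) and by 0.52 ± 0.09 over both diets (adjusted p = 0.00343). On the control diet the difference of -0.50 ± 0.13 did not pass (adjusted p = 0.0750).

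C9 polymerizes into the pore of the attack complex. Its level was 12.38, 11.98 and 11.99 on the wild-type control arrays, 12.07, 12.25 and 12.06 on the wild-type quercetin arrays, 11.36, 11.75 and 12.16 on the POR-null control arrays, and 11.34, 11.56 and 11.43 on the POR-null quercetin arrays. The genotypes did not overlap on the quercetin diet, whereas on the control diet POR-null array 3 lay inside the wild-type range. C9 fell by 0.68 ± 0.16 on the quercetin diet (adjusted p = 0.0384) and by 0.52 ± 0.11 over both (adjusted p = 0.0121), and differed by -0.36 ± 0.16 on the control diet (adjusted p = 0.288).

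C6, which binds C5b, had levels of 9.31, 9.35 and 9.32 on the wild-type control arrays and 9.17, 9.08 and 9.26 on the POR-null control arrays. On the quercetin diet they were 9.04, 9.42 and 9.05 in wild type and 8.69, 8.95 and 8.85 in POR-null. The genotypes did not overlap on either diet, but the differences of -0.16 ± 0.11 and -0.34 ± 0.11 did not pass (adjusted p = 0.517 and 0.124). Klkb1, Hc, Proc and C6 were the 4 members (11.4%) lower without overlap on both diets, against 2.5% of all genes and 3.75% of those as bright; 0 members were higher in that way, against 3.6% of all genes. C8a, C8b and C8g, the 3 chains of C8, differed by 0.09 ± 0.19, 0.15 ± 0.11 and -0.07 ± 0.12 on the control diet and by -0.38 ± 0.19, -0.10 ± 0.11 and -0.27 ± 0.12 on the quercetin diet, and none passed.

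Cfb pairs with C3b to form the alternative convertase, and its levels were 10.98, 10.88 and 10.74 on the wild-type control arrays, 10.86, 10.93 and 10.86 on the wild-type quercetin arrays, 10.44, 10.49 and 10.83 on the POR-null control arrays, and 10.56, 10.31 and 10.46 on the POR-null quercetin arrays. POR-null control array 3 again lay inside the wild-type range, and the other 5 POR-null arrays lay below all wild-type arrays. Cfb fell by 0.44 ± 0.11 on the quercetin diet (adjusted p = 0.0465) and by 0.36 ± 0.08 over both (adjusted p = 0.0100), and differed by -0.28 ± 0.11 on the control diet (adjusted p = 0.211). C2, the corresponding protease of the classical and lectin convertase and the neighbour of Cfb on the chromosome, differed by 0.05 ± 0.09 and -0.04 ± 0.09.

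Proc encodes protein C, which with its cofactor protein S (Pros1) inactivates factors V and VIII. Proc levels were 10.22, 10.35 and 10.02 on the wild-type control arrays, 10.08, 10.37 and 10.30 on the wild-type quercetin arrays, 9.85, 9.94 and 9.89 on the POR-null control arrays, and 9.58, 9.91 and 9.89 on the POR-null quercetin arrays. All 6 POR-null arrays lay below the 6 wild-type arrays. Proc fell by 0.45 ± 0.11 on the quercetin diet (adjusted p = 0.0499) and by 0.38 ± 0.08 over both (adjusted p = 0.0103), with -0.30 ± 0.11 on the control diet (adjusted p = 0.206).

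Pros1 lay on the other side. Its levels were 7.50, 6.59 and 6.60 on the wild-type control arrays and 7.74, 7.12 and 7.27 on the POR-null control arrays, then 7.20, 7.19 and 7.02 in wild type and 7.97, 7.66 and 7.44 in POR-null on the quercetin diet. The genotypes overlapped through wild-type control array 1 on the control diet and did not overlap on the quercetin diet. The differences of 0.48 ± 0.22 and 0.55 ± 0.22 (adjusted p = 0.306 and 0.215), and of 0.52 ± 0.16 over both diets (adjusted p = 0.0578), did not pass.

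F2 encodes prothrombin, and its levels were 11.56, 11.47 and 11.47 on the wild-type control arrays, 11.67, 11.66 and 11.51 on the wild-type quercetin arrays, 11.23, 11.26 and 11.55 on the POR-null control arrays, and 11.32, 11.34 and 11.19 on the POR-null quercetin arrays. POR-null control array 3 was within the wild-type range, as for C9 and Cfb. F2 fell by 0.24 ± 0.07 over both diets (adjusted p = 0.0387), and passed on neither diet alone (-0.15 ± 0.09 and -0.33 ± 0.09, adjusted p = 0.463 and 0.0800). Of the other vitamin K dependent factors, F7 differed by -0.12 ± 0.12 and -0.24 ± 0.12, F9 by 0.32 ± 0.11 and 0.03 ± 0.11, and F10 by 0.07 ± 0.09 and 0.04 ± 0.09 on the control and quercetin diets, and none passed. F9 (9.47, 9.33 and 9.30 in wild type, 9.63, 9.84 and 9.60 in POR-null) was, with F12 and F13b, among the 3 members higher without overlap on the control diet, where 8.25% of all genes were; 5 were lower in that way (C6, Hc, Proc, Klkb1 and Serpinc1), against 9.55% of all genes.

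**Figure D2:**
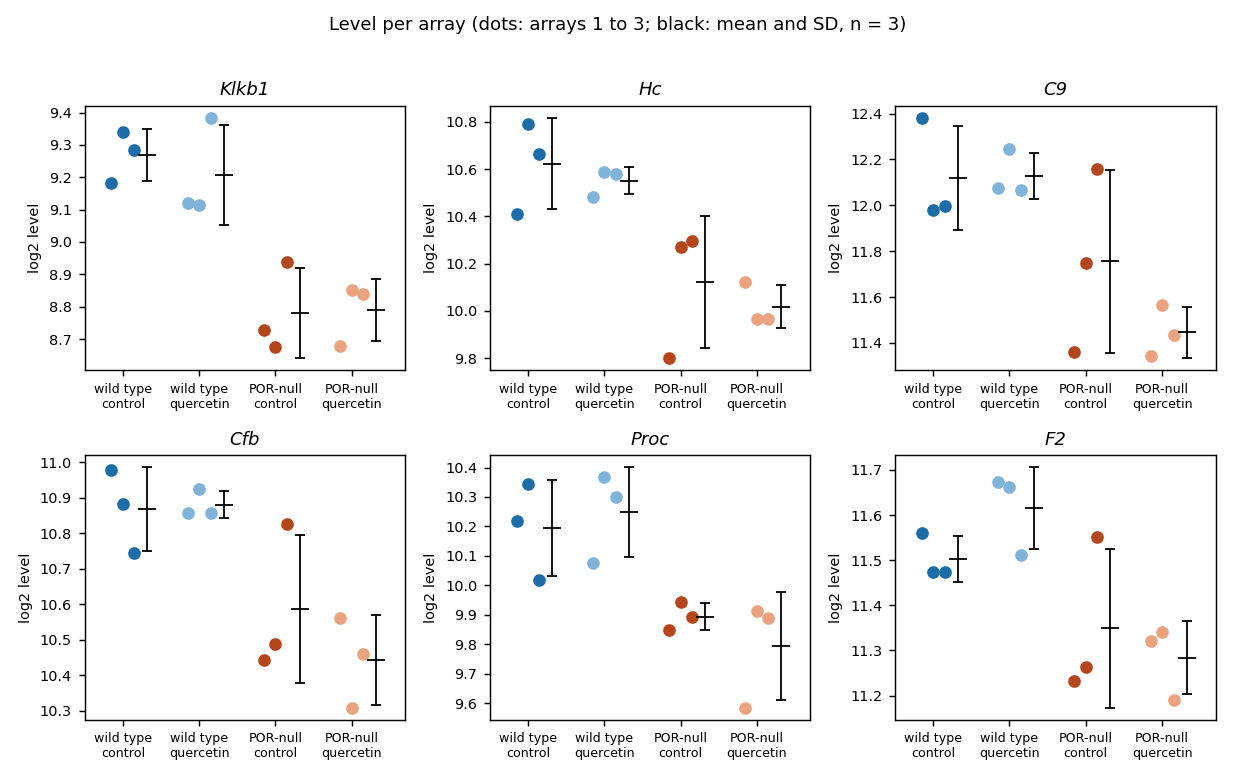
Log2 level on each array (y axis) of the 6 members that fell in POR-null liver, by group (x axis); dots are arrays and the black bars are the mean and SD of 3 arrays. For Klkb1, Hc and Proc all 6 POR-null arrays lie below all 6 wild-type arrays, and for C9, Cfb and F2 POR-null control array 3 reaches the wild-type range.

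The remaining members did not pass in any of the 3 genotype comparisons. Among the lectin route genes, Mbl2, a mannose-binding lectin, differed by -0.47 ± 0.24 and -0.59 ± 0.24 on the 2 diets and by -0.53 ± 0.17 over both (adjusted p = 0.0728), whereas Mbl1 differed by -0.08 ± 0.15 and -0.03 ± 0.15. The lectin proteases Masp1 and Masp2 lay at 0.21 ± 0.20 and -0.13 ± 0.15 on the control diet and at -0.19 ± 0.20 and 0.32 ± 0.15 on the quercetin diet. One of 4 further probe sets for Masp1 fell by 0.47 ± 0.09 on the quercetin diet (adjusted p = 0.0178) and by 0.41 ± 0.07 over both (adjusted p = 0.00222), so the probe sets of this gene disagree. F10 likewise had a dimmer probe set, 1 of 2 further ones, that rose by 0.66 ± 0.14 on the quercetin diet (adjusted p = 0.0270) and by 0.42 ± 0.10 over both (adjusted p = 0.0201), while the one used did not. Of 10 further probe sets, spread over 6 members, these 2 passed in a comparison.

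The complement inhibitors were mixed. C4bp, a cofactor for the cleavage of C4b, had levels of 10.70, 10.30 and 9.76 on the wild-type control arrays and 10.90, 10.32 and 10.10 on the POR-null control arrays, and of 9.75, 10.19 and 10.46 against 10.90, 10.72 and 10.63 on the quercetin diet. The genotypes overlapped on the control diet only, and the differences of 0.19 ± 0.23 and 0.62 ± 0.23 did not pass (adjusted p = 0.748 and 0.191). Cfi, the protease that cleaves C3b and C4b, lay at -0.04 ± 0.12 and -0.28 ± 0.12, and Serping1, the C1 inhibitor that also blocks kallikrein, at -0.02 ± 0.10 and -0.11 ± 0.10. Vtn, which keeps the attack complex in solution and stabilizes the plasminogen activator inhibitor, lay at -0.14 ± 0.12 and -0.16 ± 0.12.

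On the coagulation side F13b, the carrier subunit of the fibrin-crosslinking factor XIII, had levels of 9.59, 9.42 and 9.17 on the wild-type control arrays and 10.05, 9.97 and 9.69 on the POR-null control arrays. These groups did not overlap, and the difference of 0.51 ± 0.14 did not pass (adjusted p = 0.0941). With quercetin the levels were 9.46, 9.94 and 9.96 in wild type and 9.93, 9.93 and 9.92 in POR-null, and the difference was 0.14 ± 0.14. F5, the cofactor of prothrombin activation, lay at -0.05 ± 0.17 and -0.24 ± 0.17. A second F5 probe set gave 0.13 ± 0.11 and -0.30 ± 0.11, and did not pass either (adjusted p = 0.601 and 0.160). For quercetin in wild type that probe set gave 0.38 ± 0.11, against 0.065 ± 0.17 for the one used, and neither passed (adjusted p = 0.390 and 0.941). The thrombin inhibitors Serpinc1 (antithrombin) and Serpind1 (heparin cofactor II) lay at -0.08 ± 0.07 and -0.01 ± 0.20 on the control diet and at 0.05 ± 0.07 and -0.39 ± 0.20 on the quercetin diet. Plg (plasminogen) and Serpinf2 (the plasmin inhibitor) lay between 0.02 and 0.16 in both comparisons.

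The 3 fibrinogen chains, whose genes lie side by side, differed between genotypes by -0.00 to -0.13 on the control diet and by -0.09 to -0.20 on the quercetin diet, with 0 passing. The POR-null quercetin levels of Fgb were 13.01, 12.35 and 12.38 and those of Fgg 13.02, 12.32 and 12.42, against 12.73, 12.75 and 12.53 and 12.55, 12.83 and 12.73 in wild type. In both chains POR-null quercetin array 1 was the highest of all 12 arrays and the other 2 arrays of its group lay below all wild-type arrays on that diet. On the same array 22 acute phase genes that are not members had a mean level 0.98 above their mean over all arrays, against 0.36 and -0.06 on the other 2 arrays of the group, and the part of these genes in the fibrinogen values was not tested.

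The calls on single diets did not hold in every fit with 1 array left out. On the control diet the call of Klkb1 was lost when wild-type array 2 or 3, or POR-null array 1 or 2, was left out, with adjusted p of 0.101 to 0.174. Without wild-type control array 1, 4 members passed (F13b, Hc, Klkb1 and Pros1), and without POR-null control array 3, 5 did (C9, Cfb, F13b, Hc and Klkb1). None of the 5 calls on the quercetin diet held when any 1 of its 6 arrays was left out (adjusted p = 0.0537 to 0.218). The differences kept their sign in these fits. They ran from -0.74 to -0.62 for C9, -0.59 to -0.51 for Hc, -0.50 to -0.37 for Cfb, -0.46 to -0.33 for Klkb1 and -0.54 to -0.35 for Proc. In the comparison averaged over both diets Klkb1, Hc, C9, Cfb and Proc passed in all 12 fits with 1 array left out, at adjusted p of at most 0.0376, whereas F2 passed only without wild-type quercetin array 3 (adjusted p = 0.0373) or POR-null control array 3 (adjusted p = 0.00672). Further members passed in 3 of these fits: F13b, Mbl2 and Pros1 without wild-type control array 1, F13b without wild-type quercetin array 3, and F13b and F7 without POR-null control array 3.

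With quercetin 13 of 15 complement members lay below 0 in POR-null against wild type, with a median of -0.27, against 11 of 19 coagulation members, with a median of -0.11, where 56.3% of all genes lay below 0. There 8 of 15 complement members were lower without overlap of the arrays and 3 fell, against 3 of 19 and 2 on the coagulation side, where 13.5% of all genes were lower without overlap and 0.629% fell. In the other direction 3 members (C4bp, Pros1 and Kng1) were higher without overlap, against 12.2% of all genes. On the control diet 10 of 15 and 10 of 19 lay below 0, with medians of -0.07 and -0.00, where 53.9% of all genes lay below 0. The median of the complement members minus that of the coagulation members on the quercetin diet was -0.16, and it was 0.02 without POR-null quercetin array 1.

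**Figure D3:**
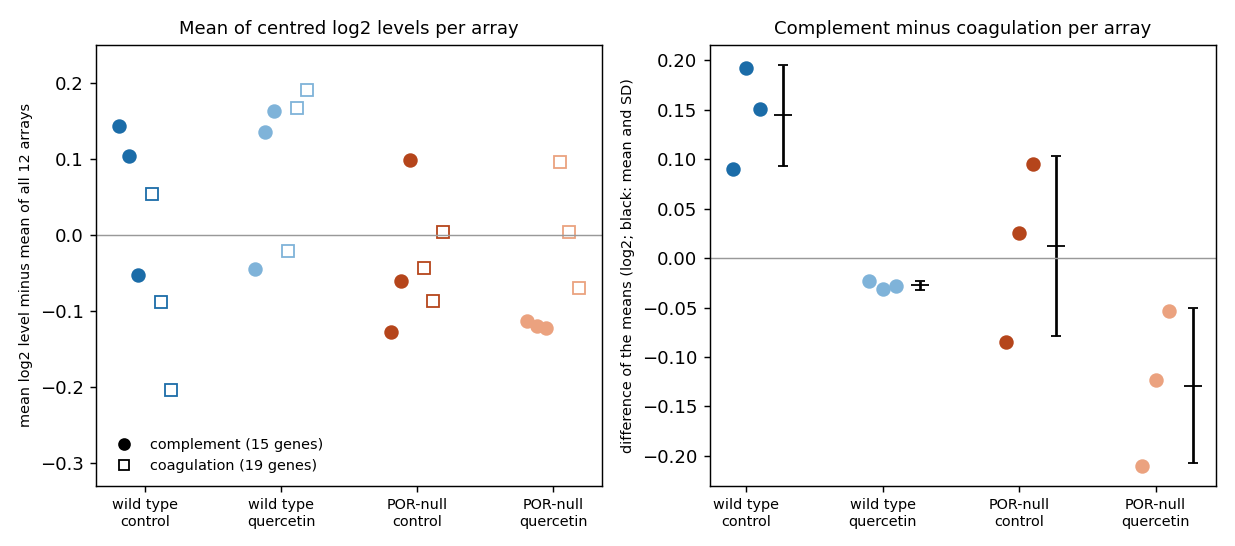
Left: mean over members of the log2 level minus each gene's mean over all 12 arrays (y axis) on every array, for 15 complement genes (circles) and 19 coagulation genes (squares), by group (x axis). Right: the difference of the 2 means on every array, with the group mean and SD, from 0.14 in wild-type control to -0.13 in POR-null quercetin liver.

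Within each array the mean centred level of the complement members minus that of the coagulation members was 0.09, 0.19 and 0.15 in wild-type control liver, -0.02, -0.03 and -0.03 in wild-type quercetin liver, -0.08, 0.03 and 0.10 in POR-null control liver, and -0.21, -0.12 and -0.05 in POR-null quercetin liver. The group means were 0.14 ± 0.05 (SD, n = 3), -0.03 ± 0.00, 0.01 ± 0.09 and -0.13 ± 0.08 in that order. The wild-type groups did not overlap, and the quercetin groups did not overlap either, while POR-null control liver overlapped all 3 other groups. The 3 POR-null quercetin arrays had complement means of -0.11 to -0.12, and their coagulation means ran from -0.07 to 0.10. These scores over chosen members are given without a test.

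After 24 h on the quercetin diet no member passed the test in either genotype. In wild type 0 of 35 members passed by limma, as did 0% of all genes, and 7 members were higher and 0 lower at an unadjusted p under 0.05 (20%), where 4.36% of all genes and 7.39% of the genes as bright were higher and 4.31% of all genes lower. The 7 were F9, F12, F11, F13b, C8a, Masp1 and Fga, and 5 of them belong to the coagulation side. By overlap, F9, F12 and Serping1 were higher and Serpinc1 lower on all 3 wild-type quercetin arrays, against 5.67% and 6.23% of all genes. In POR-null liver 0 of 35 passed, again with 0% of all genes, with 1 member higher (Serpinf2) and 2 lower (C6 and Mbl2) at an unadjusted p under 0.05, against 3.36% and 3.49% of all genes. Masp2 and Kng1 were higher and C6, C8b and Mbl2 lower there without overlap, against 6.83% and 7.62% of all genes. For Kng1 the second probe set gave -0.05 ± 0.13 there, against 0.20 ± 0.10 for the one used.

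**Figure D4:**
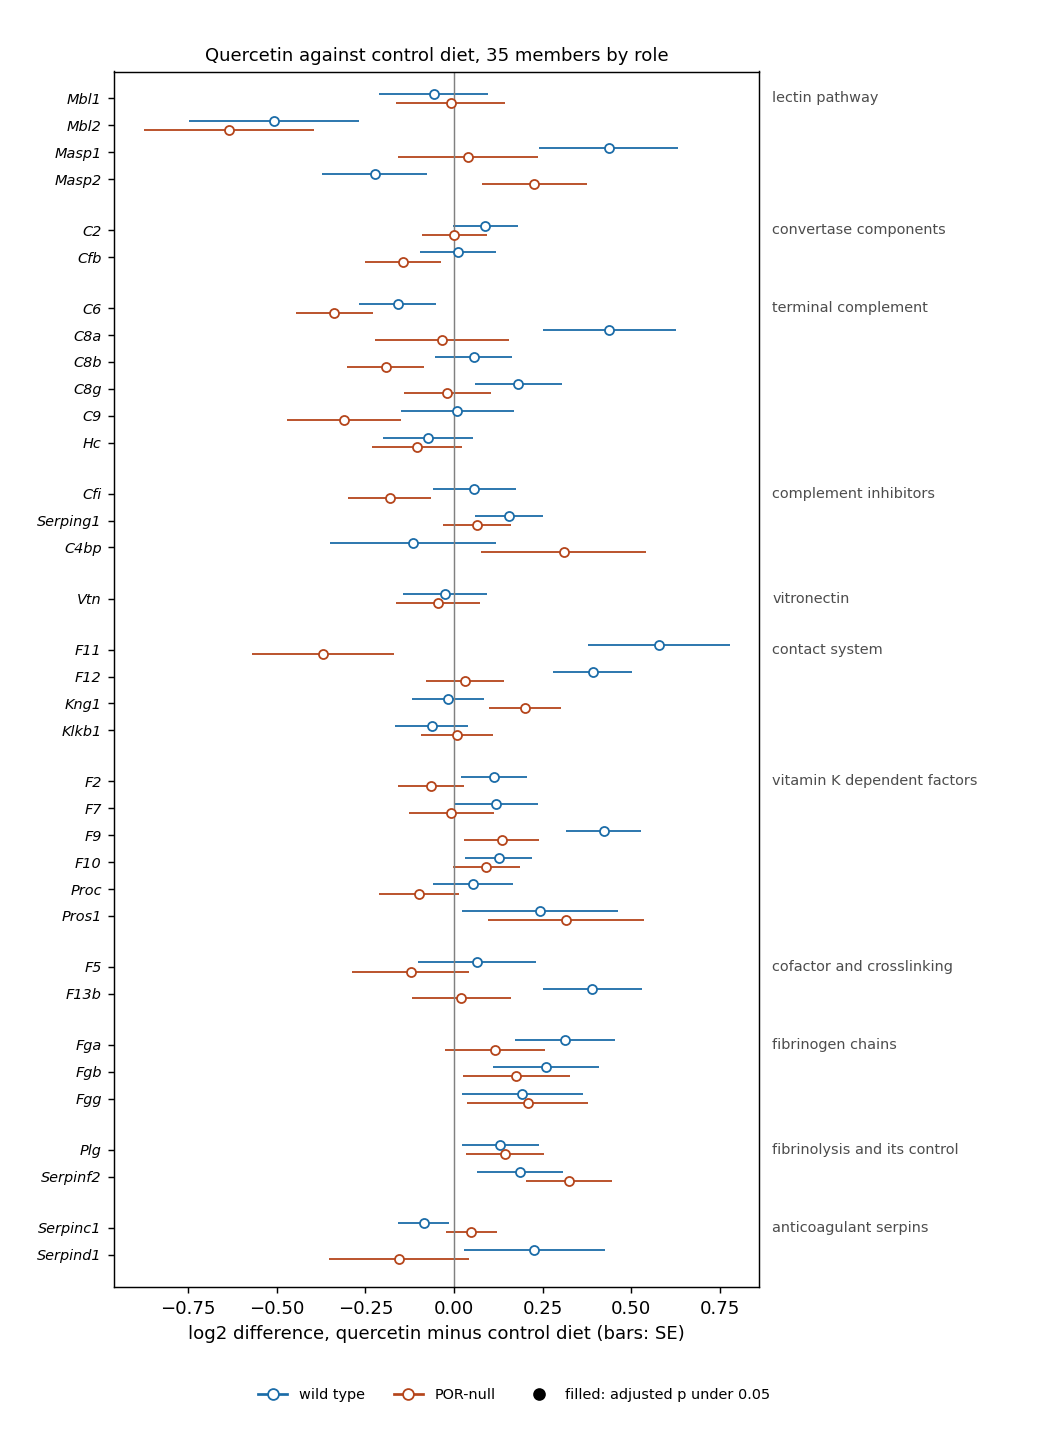
Log2 difference between the quercetin and control diets (x axis, with SE) for the 35 members grouped by role (y axis), in wild type (blue) and POR-null liver (orange). No point is filled because 0 members passed an adjusted p of 0.05. In wild type 16 of 19 coagulation members lie right of 0.

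F9, the factor IX zymogen that is lacking in haemophilia B, had levels of 9.47, 9.33 and 9.30 on the wild-type control arrays and 9.77, 9.78 and 9.81 on the wild-type quercetin arrays. In POR-null liver they were 9.63, 9.84 and 9.60 on the control diet and 9.996, 9.59 and 9.88 on quercetin. The wild-type diets did not overlap (0.42 ± 0.11, adjusted p = 0.355), and the POR-null diets did (0.13 ± 0.11, adjusted p = 0.813).

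F12, the zymogen that starts contact activation, had levels of 10.79, 10.44 and 10.67 on the wild-type control arrays and 10.99, 10.85 and 11.23 on the wild-type quercetin arrays. In POR-null liver they were 10.83, 10.84 and 10.98, and then 10.85, 11.03 and 10.86. The wild-type diets did not overlap (0.39 ± 0.11, adjusted p = 0.390), and the POR-null diets did (0.03 ± 0.11, adjusted p = 0.969).

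F11 is activated by factor XIIa and thrombin, and had levels of 7.62, 7.14 and 6.91 on the wild-type control arrays and 7.34, 7.94 and 8.12 on the wild-type quercetin arrays. In POR-null liver they were 7.65, 7.37 and 7.50 on the control diet and 7.07, 7.41 and 6.93 on quercetin. The diets overlapped in both genotypes, with differences of 0.58 ± 0.20 and -0.37 ± 0.20 (adjusted p = 0.474 and 0.761). F11 had the lowest p of the members for the difference between the genotypes' responses, -0.95 ± 0.28, which did not pass (adjusted p = 0.798).

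F13b differed by 0.39 ± 0.14 in wild type and by 0.02 ± 0.14 in POR-null liver. F9, F12 and F13b had their lowest group mean in wild-type control liver: 9.37, 10.63 and 9.395. The other groups had means of 9.69 to 9.82, 10.88 to 11.02 and 9.78 to 9.93. The same wild-type control arrays enter the wild-type diet comparison and the genotype comparison on the control diet. The higher values of these genes in both comparisons are therefore not independent. C8a, with levels of 10.70, 10.31 and 9.69 on the wild-type control arrays and 10.58, 10.69 and 10.75 on quercetin, differed by 0.44 ± 0.19, with control array 3 the lowest. Masp1 differed by 0.44 ± 0.20 in wild type, where quercetin array 3 stood at 8.92 and the other 5 wild-type arrays at 7.74 to 7.98. Without that array the difference was 0.11, as the mean over the gene's probe sets it was 0.06, and the 4 further Masp1 probe sets gave 0.03, -0.07, -0.00 and -0.12. On that array the mean level of 14 macrophage and Kupffer cell markers was 7.46, against 6.80 and 6.86 on the other 2 arrays of the group, and their part in the Masp1 value was not tested.

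On the lower side, C6 in POR-null liver went from 9.17, 9.08 and 9.26 on the control diet to 8.69, 8.95 and 8.85 on quercetin (-0.34 ± 0.11, adjusted p = 0.631). Mbl2 went from 9.71, 10.11 and 10.16 to 9.08, 9.37 and 9.62 (-0.64 ± 0.24, adjusted p = 0.657). Neither gene overlapped between the diets in POR-null liver, and both overlapped in wild type, where C6 differed by -0.16 ± 0.11 and Mbl2 by -0.51 ± 0.24.

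**Figure D5:**
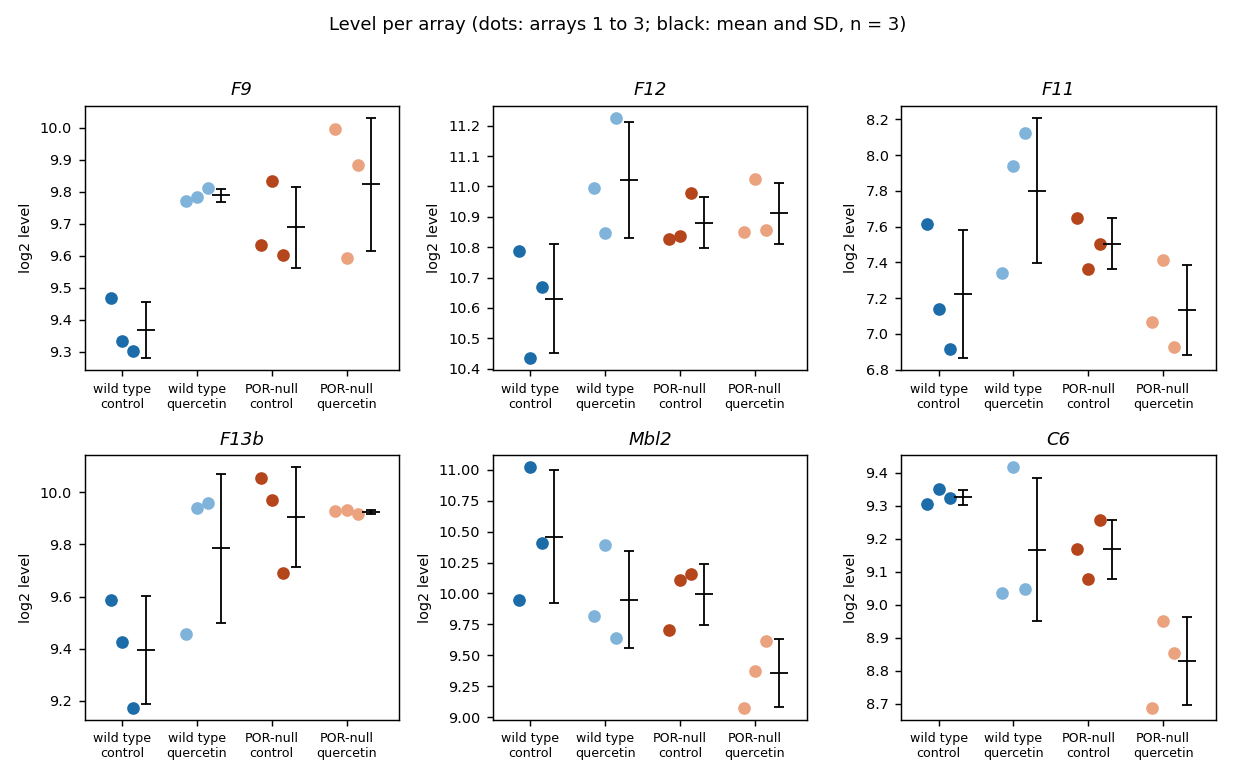
Log2 level on each array (y axis) of 6 members with low unadjusted p in a diet comparison, by group (x axis); dots are arrays and black bars the mean and SD of 3 arrays. F9 and F12 do not overlap between the wild-type diets, and Mbl2 and C6 do not overlap between the POR-null diets.

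By side, 16 of 19 coagulation members and 9 of 15 complement members lay above 0 in wild type on quercetin, with medians of 0.19 and 0.01, where 48.6% of all genes and 53.6% of the genes as bright lay above 0. In POR-null liver 13 of 19 and 5 of 15 lay above 0, with medians of 0.05 and -0.03, against 48.4% and 62.6%. All 6 terminal complement genes lay below 0 in POR-null liver on quercetin (median -0.15), and 4 of 6 lay above 0 in wild type. The 2 diet comparisons share no arrays, and 18 of 35 members (51.4%) had the same sign in both, against 54.3% of all genes. The difference between the genotypes' responses passed for 0 of 35 members and 0% of all genes, with 1 member higher (Masp2) and 2 lower (F11 and F12) at an unadjusted p under 0.05, against 2.97% and 2.99% of all genes.

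Of 32 further complement genes on the list of the pathway 21 were measured, and of 32 further coagulation genes 27. In POR-null against wild type over both diets 1 of 21 rose (C1qa, a chain of C1q made by macrophages, by 0.39 ± 0.11, adjusted p = 0.0451) and 0 fell. Of the 27, 4 rose and 0 fell. Over all genes 5.08% rose and 2.86% fell in this comparison (11.4% and 4.54% of the genes at or above the dimmest member). Of the 4, Lman1 and Mcfd2, the subunits of the receptor that carries factors V and VIII out of the endoplasmic reticulum, also rose on the quercetin diet alone. There 1.86% of all genes and 4.12% of the genes as bright rose.

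Lman1 levels were 9.43, 9.54 and 9.43 on the wild-type control arrays, 9.41, 9.38 and 9.47 on the wild-type quercetin arrays, 9.75, 9.85 and 9.74 on the POR-null control arrays, and 9.88, 9.81 and 9.83 on the POR-null quercetin arrays. Mcfd2 levels were 10.18, 10.21 and 10.15, then 10.17, 10.19 and 10.03, then 10.64, 10.54 and 10.38, and 10.64, 10.50 and 10.62 in the same order. In both genes all 6 POR-null arrays lay above all 6 wild-type arrays, a pattern met by 2.16% of all genes and 5.16% of the genes as bright. Lman1 rose by 0.36 ± 0.05 over both diets (adjusted p = 0.00131) and by 0.42 ± 0.08 on the quercetin diet (adjusted p = 0.0117), and Mcfd2 by 0.40 ± 0.06 (adjusted p = 0.00150) and 0.46 ± 0.09 (adjusted p = 0.0133). Over both diets the calls held in all 12 fits with 1 array left out. For quercetin alone the call of Lman1 was lost when wild-type array 1 or 2 or POR-null array 1 was left out (highest adjusted p = 0.0683), and that of Mcfd2 when wild-type array 3 or POR-null array 1 was (highest adjusted p = 0.0747). With other processing choices Lman1 differed by 0.28 to 0.42 on that diet and passed in 7 of 9 (highest adjusted p = 0.156). Mcfd2 differed by 0.33 to 0.46 and passed in 8 of 9. Over both diets Lman1 ran from 0.24 to 0.37 and Mcfd2 from 0.29 to 0.40, and both passed in all 8. F5, the member this receptor carries, did not pass.

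The other 2 further coagulation genes that rose were F2r, a thrombin receptor (0.80 ± 0.20, adjusted p = 0.0274), and Ggcx, the carboxylase that modifies the vitamin K dependent factors (0.49 ± 0.14, adjusted p = 0.0428). Their calls and that of C1qa held in 4, 5 and 2 of 12 fits with 1 array left out.

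Acute phase and regulator genes were measured beside the members. The counts given here stand beside 5.08% of all genes that rose and 2.86% that fell over both diets (11.4% and 4.54% of the genes at or above the dimmest member). Of 22 acute phase genes that are not members 5 rose and 0 fell in POR-null liver over both diets: Lcn2 (2.49 ± 0.36), Orm2 (2.31 ± 0.35), Orm3 (1.18 ± 0.17), Apcs (0.92 ± 0.26) and Fgl1 (0.83 ± 0.18), of which Apcs passed in 4 of 12 fits with 1 array left out and the others in all 12. The list was mixed, with 15 of the 22 above 0 and 7 below, and a median of 0.14. By limma 3 of the 22 were lower at an unadjusted p under 0.05 (13.6%), against 12% of all genes. Of 18 measured genes of interleukin 6 signalling and liver transcription, Nr0b2 (-1.11 ± 0.15), Foxa1 (-0.68 ± 0.15), Hnf4a (-0.31 ± 0.07) and Nr5a2 (-0.26 ± 0.07) fell and Stat3 rose (0.34 ± 0.08), with Nr5a2 and Stat3 passing in 5 and 7 of 12 such fits. Of the 13 hepatocyte markers, which include Hnf4a, 9 lay below 0 on each diet and 3 fell over both; their summed linear level ran from 79493 to 82033 on wild-type control, 83410 to 85031 on wild-type quercetin, 76278 to 84348 on POR-null control and 74503 to 80159 on POR-null quercetin arrays. Of 14 measured macrophage and Kupffer cell markers 4 rose and 0 fell over both diets, with summed levels of 1997 to 2750, 2152 to 3808, 2918 to 3716 and 3189 to 3802 in the same order. These 14 markers did not all go the same way: 10 lay above 0 over both diets and 4 below. By limma 1 of them was lower at an unadjusted p under 0.05 (7.14%), against 12% of all genes. The part of these genes and cell markers in the members' differences was not tested.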

How the data were processed

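Liver RNA of 12 pools was measured on 12 arrays. The deposited table holds log2 values from 2.57 to 14.2, and the authors' route to them is not settled: MAS5 and RMA are named per the submitters' processing notes, with no role or version. No further normalization or pseudocount was applied. Of 22690 probe sets 64 AFFX controls were left out, and 22626 were tested; 20380 had 1 gene symbol, 691 several and 1555 none in the platform annotation. Groups came from the sample titles. Testing used limma 3.58.1 under R 4.3.3: a mean for each of 4 groups, moderated variances with an intensity trend and 8 residual degrees of freedom, two-sided, with Benjamini-Hochberg adjustment at 0.05. The median half-width of a 95% interval was 0.24 log2 units. On simulated data for POR-null against wild type on the control diet, over 22626 probe sets, 6.3%, 48.4% and 94.5% of changes of 0.3, 0.5 and 1 log2 units were recovered, with 5.4 false calls per run on average. The simulated noise was normal and independent between probe sets, without variation shared across an array. Fewer probe sets were changed per run than the 262 called in the data. Recovery and false calls in the real data can therefore differ. The members and lists were chosen with earlier results of these data known. Genes were named as all members, with levels on each array for those of lowest p, and listed pathway genes past the threshold. Alternatives were a filter on dim probe sets, quantile normalization, other variance priors, array weights, a block for pools of equal number, fits of the compared groups alone, other probe set choices and leaving out each array. Sequences are from the RefSeq promoter table of GRCm38.p6; protein sequences were not used here. Figures were drawn with matplotlib 3.10.9.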

Additional observations from a re-analysis of the deposited data

Results flagged for a closer look

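F11 and F2 lay on opposite sides in the genotypes: every quercetin array lay above the mean of the control arrays in wild type and below it in POR-null liver. For F11 the diet differences were 0.58 and -0.37, and the difference between them was -0.95 ± 0.28 (limma adjusted p = 0.798). For F2 they were 0.11 and -0.07, and the difference was -0.18 ± 0.13 (adjusted p = 0.854). Neither passed the test, and 8.43% of all genes showed such a pattern in one direction or the other.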

How the results depend on the processing

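No member reversed its direction where it was called in either fit. The count of members past the threshold on the control diet between genotypes was 2 with quantile normalization and 0 with only the compared groups fitted, and ran from 0 to 5 with 1 array left out. On the quercetin diet it was 1 without a variance trend (C9), 9 with only the compared groups, 2 without _x_at, _s_at and _a_at probe sets (C9 and Hc), and 0 to 1 with 1 array left out (F11 without wild-type quercetin array 1, Masp2 without wild-type quercetin array 3). Averaged over both diets it was 10 with array weights and 5 to 8 with 1 array left out. With the pool number as a replicate block the counts were 1 on the control diet, 3 on the quercetin diet (Hc, Klkb1 and Proc) and 7 averaged, and 0 for the diet comparisons; in 5 of 12 pairs, pools of the same number had deviations correlated above 0.1 (-0.17 to 0.24). Between genotypes on the same diet all 6 same-numbered pairs were above 0 (0.041 to 0.235), each above the values of 1 of its pools with the differently numbered pools of the other genotype, and 3 of 6 passed 0.1. Deviations sum to 0 within a group, so a same-numbered value above 0 forces at least 1 value with the differently numbered pools below 0. That ordering therefore adds little to the signs. The signs are a hint from the data rather than the design, and the numbers were not taken to pair samples. The complement median minus the coagulation median for quercetin in POR-null liver moved from -0.08 to -0.15 with array weights and to -0.15 with Serping1 and C4bp on neither side. With 1 array left out it ran from -0.216 to -0.084 there, from -0.267 to 0.0203 for genotype on the quercetin diet, from -0.082 to 0.0897 for the difference between responses and from -0.127 to 0.0239 averaged over both diets. The causes were not tested. The median of all genes stayed within 0.032 under every setting. Fits of the compared groups alone give no value for the difference between responses or the averaged comparison. The number of arrays limits what could be seen. Changes of 0.3 log2 units were mostly missed in data simulated for genotype on the control diet, and no other comparison was simulated.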
